A study of Rattus norvegicus with 6 samples.

Results

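Glycosaminoglycan chains are built by a set of enzymes and carriers, and 37 genes for this machinery were followed in cells of the rat nucleus pulposus, the soft centre of the intervertebral disc. They were taken by symbol, by function and not by level, though the list was made with earlier results of these data known. All 37 were found among the 32623 genes of the deposited table. By role they comprise 5 genes of the linker that joins a chain to its core protein, 6 of chondroitin chain synthesis, 8 of chondroitin and dermatan modification, 4 of heparan chain synthesis, 6 of heparan modification, 6 of precursor supply and 2 extracellular sulfatases. RNA sequencing covered 6 libraries of cells that had been taken from lumbar discs of male rats of the Sprague-Dawley strain, aged 4 weeks, digested with collagenase, grown with serum and used between passages 3 and 5. Of these, 3 libraries came from cells given a lentivirus with a short hairpin RNA against Bmal1 for 72 hours (shBmal1) and 3 from cells given a negative control shRNA lentivirus for the same time (shNC). Both groups therefore carried a lentivirus, and untransduced cells were not analysed here. The labels name 1 hairpin target per group and are silent on whether the replicates are separate cultures or rats. The p-values thus measure only how far these samples vary, which may be technical.

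A glycosaminoglycan is a long unbranched chain of repeating sugar pairs. Synthesis starts in the secretory pathway on a serine of the core protein with a short linker of xylose, galactose and glucuronic acid. The next sugar decides between chondroitin or dermatan sulfate, which carries N-acetylgalactosamine, and heparan sulfate, which carries N-acetylglucosamine. Sulfotransferases then place sulfate on the chain from the donor PAPS, and the negative charge that results draws water into the disc. In the nucleus pulposus the chondroitin sulfate of aggrecan is the best known of these chains.

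The libraries differed in more than the hairpin. Total counts over genes lay between 44043803 and 49783710 in shNC but between 8773762 and 11679587 in shBmal1, a 4.44-fold difference of the means. The share of counts in mitochondrial rRNA was 0.033 to 0.060% in shNC and 0.72 to 1.31% in shBmal1, small in both but 19.3-fold higher in shBmal1. Depth and group cannot be told apart. Bmal1, listed as Arntl, was lower in every shBmal1 library, with an FPKM (fragments scaled for gene length and library size) of 8.38, 9.19 and 9.90 with shNC and 0.716, 1.39 and 0.690 with shBmal1 and a log2 fold change of −3.37 ± 0.26 (SE; adjusted p = 1.17e-05, edgeR). An exact two-sided permutation test of its level gave p = 0.1, the smallest that 3 against 3 libraries allow. Of 13 nucleus pulposus and notochord markers, 12 were found and 10 tested, 4 of them lower and 2 higher (60% called, against 71.3% of all 14342 tested genes), and the list's summed FPKM was 329 to 337 in shNC and 90.4 to 109 in shBmal1. Tbxt, which marks notochord cells, had no count in any library, and Ca12 was near 0 (0.0198 FPKM in shNC). Pax1 went from a mean of 172 to 29.9 FPKM and Krt8 from 37.7 to 17.4. Krt18, Krt19 and Col2a1 averaged 1.12, 0.576 and 7.17 FPKM in shNC, and the markers that were higher in shBmal1 were Foxf1 and Ca3. Markers of other cells moved between the groups as well. The summed FPKM of 9 annulus, tendon and fibroblast markers was 498 to 518 in shNC and 46.3 to 62.5 in shBmal1, with 6 of 8 tested lower (75%, against 35.3% of all tested genes), none higher and Tnmd without a count. For 6 smooth muscle and myofibroblast markers it was 2980.0 to 3184 against 591 to 670.4, with all 6 called, 5 lower and 1 (Myh11) higher. The 5 endothelial markers found summed to 0.0769 to 0.312 against 1.39 to 1.86. Both tested ones, Tek and Vwf, were higher, against 36.0% of all tested genes, while Cdh5 and Kdr had counts in 1 library of each group. In shNC, Tek had 8, 16 and 39 counts and Vwf 14, 4 and 0. Both met the filter on low counts through shBmal1, which favoured that direction, so these calls are not given as support. The 7 leukocyte and macrophage markers summed to 17.5 to 23.4 against 15.3 to 20.2, of which Cd14 made a mean of 19.2 and 15.7. Of 2 tested, 1 (Cd68) was higher and 1 (Cd14) lower, against 36.0% and 35.3% of all tested genes. Adgre1 and Cd3e were at 0 in shNC. Cd68 had 24, 12 and 18 counts in shNC and as a full group met the filter only through shBmal1, so its call is not given as support either. The part of these markers, of depth and of mitochondrial rRNA in the results below was not tested. In bulk RNA, fewer cells of a type and less RNA per cell cannot be told apart.

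Most of this machinery was lower after Bmal1 knockdown. Of the 37 genes, 28 fell, 3 rose, 5 did not pass the test and 1, Chst7, had no count in any library and was not tested. Among those that rose, Hs3st1 had no count in shNC and entered the test through shBmal1 alone, so its direction was fixed. A gene counts as changed at a Benjamini-Hochberg adjusted p under 0.05 in edgeR's quasi-likelihood test over all 14342 tested genes. Across all tested genes 71.3% passed, 35.3% in the lower and 36.0% in the higher direction. At least 2-fold lower were 22 of the members, against 21.9% of all tested genes, and 1, Hs3st1, was at least 2-fold higher, against 25.4% (both directions together, 47.3%). The median log2 fold change of the 36 tested members was −1.19, that of all tested genes −0.014. In CPM, the count scaled to library size by TMM, the libraries of the 2 groups did not overlap for 28 members that were lower and 4 that were higher, where 39.1% and 38.2% of all tested genes were so separated, 77.3% in all. With FPKM rescaled to TPM, 30 members were lower and 1 (Hs3st1) higher in limma, against 46.6% and 28.3% of all tested genes (74.9% in all). With gene-length offsets these were 26 and 2, against 34.8% and 35.4% (70.1% in all). Among the 36, 34 were above the level that the filter on low counts needs in every library of both groups. Hs3st1 reached that level in shBmal1 only, and Xylt1 in neither group as a whole.

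**Figure D1:**
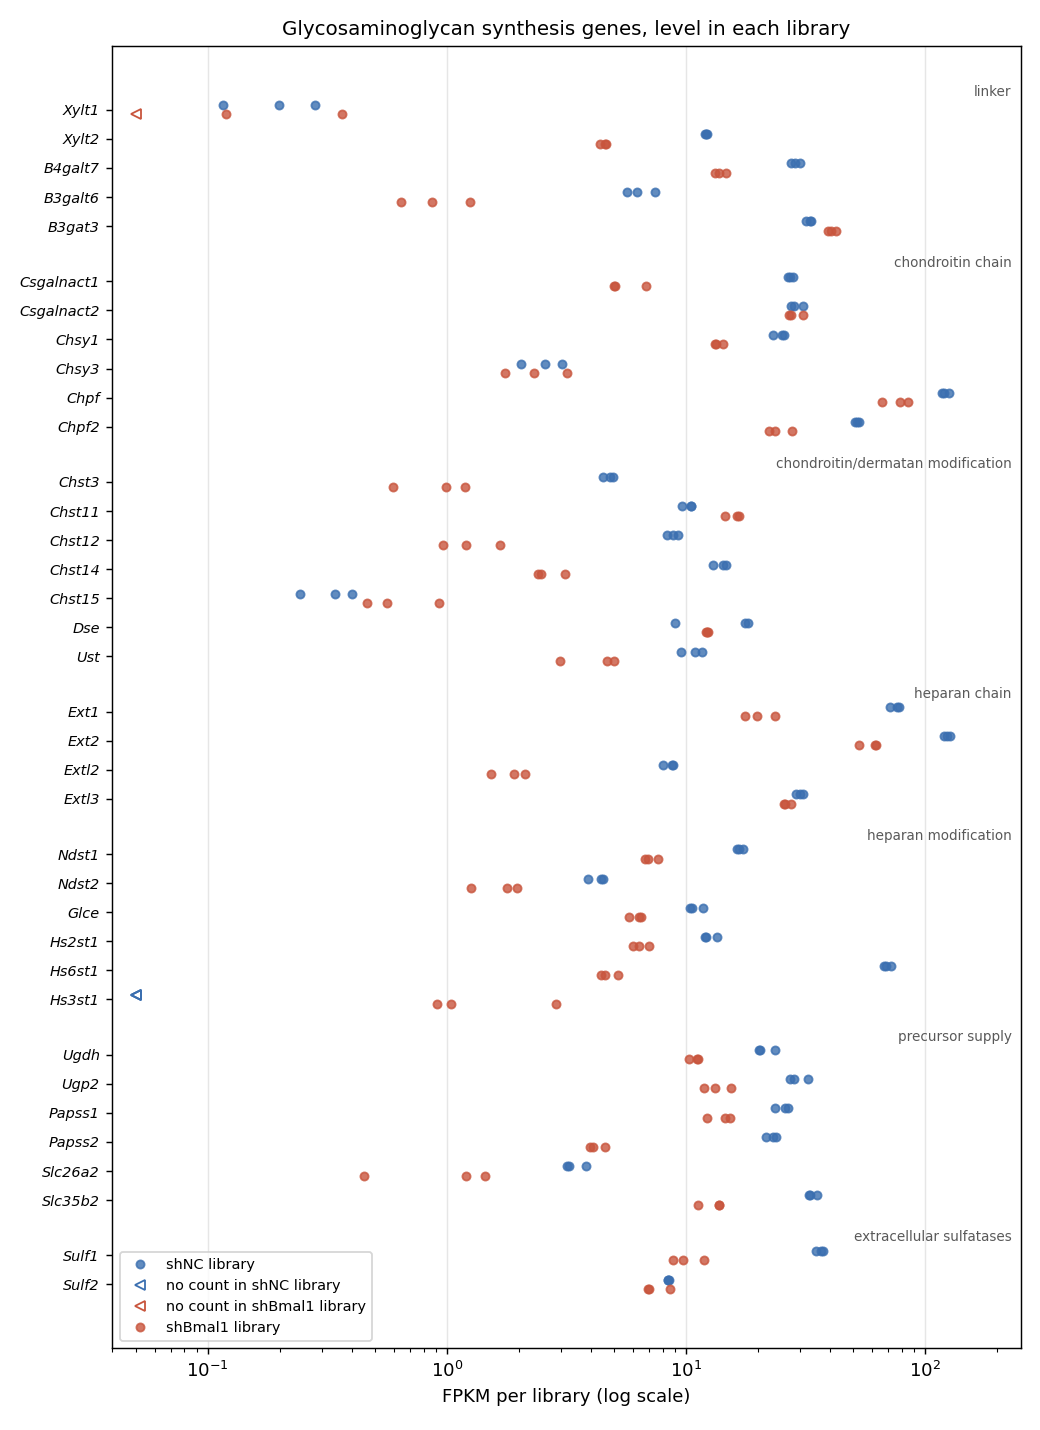
FPKM of 36 genes in each of the 6 libraries on a log axis, grouped by role, with blue points for shNC and red points for shBmal1; open triangles mark libraries with no count, and Chst7, without a count anywhere, is left out. The red points of Hs6st1 lie at 4.42 to 5.21, far to the left of its blue points at 67.5 to 71.6, whereas those of Csgalnact2, Chsy3 and Xylt1 overlap.

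Promoter windows were at hand in the RefSeq annotation of build GRCr8 for 29 of the 37 genes. The 250 bases before the annotated start are shown for 2 pairs of like function. Chst3 was lower and Chst11 higher after knockdown, and Papss2 and Papss1 were both lower, with log2 fold changes of −2.54 and −0.97. They lie at chr20:28694527-28694776 (reverse strand) for Chst3, chr7:22630442-22630691 (reverse strand) for Chst11, chr2:222714180-222714429 (forward strand) for Papss1 and chr1:239867463-239867712 (forward strand) for Papss2, and are written 5′ to 3′ on the strand of the gene. Capitals mark matches to 5 short motifs, searched on both strands. These were the E-box (CACGTG), which CLOCK and BMAL1 bind, its variant the E′-box (CACGTT), the GC box (GGGCGG), the CCAAT box (CCAAT) and the TATA box (TATAAA). In these 4 windows no 2 motifs overlap.
Chst3: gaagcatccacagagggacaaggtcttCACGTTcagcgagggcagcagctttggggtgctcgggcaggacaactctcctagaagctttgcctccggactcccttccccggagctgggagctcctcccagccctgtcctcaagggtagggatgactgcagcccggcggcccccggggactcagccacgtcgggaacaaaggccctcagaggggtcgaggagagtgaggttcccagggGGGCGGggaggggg
Chst11: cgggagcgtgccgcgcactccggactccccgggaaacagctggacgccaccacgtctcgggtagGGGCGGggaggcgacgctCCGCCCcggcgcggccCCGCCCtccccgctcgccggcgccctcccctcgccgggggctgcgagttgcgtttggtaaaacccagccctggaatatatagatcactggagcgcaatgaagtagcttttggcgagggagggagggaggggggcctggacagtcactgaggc
Papss1: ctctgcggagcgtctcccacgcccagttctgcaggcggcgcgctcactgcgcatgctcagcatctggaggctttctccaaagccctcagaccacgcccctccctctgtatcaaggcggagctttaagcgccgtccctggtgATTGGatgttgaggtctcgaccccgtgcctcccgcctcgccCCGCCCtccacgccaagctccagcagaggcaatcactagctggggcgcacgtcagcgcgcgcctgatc
Papss2: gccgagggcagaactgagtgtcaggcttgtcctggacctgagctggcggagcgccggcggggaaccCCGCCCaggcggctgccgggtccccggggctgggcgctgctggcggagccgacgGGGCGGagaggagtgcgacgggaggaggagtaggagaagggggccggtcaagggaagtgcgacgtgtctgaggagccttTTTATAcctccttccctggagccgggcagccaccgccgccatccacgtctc
The windows of Chst3, Chst11 and Papss2 held GC boxes, Chst3 also held an E′-box on the forward strand from base −223, and Papss2 a TATA box on the reverse strand from base −51. Papss1 held a GC box and, on the reverse strand, a CCAAT box. The E-box was in none of the 4. Over the 29 windows it was found in 1 (Slc26a2), or 3.45%, against 6.16% of 21851 protein-coding promoters of the same length, and the E′-box in 2 (Chst3 and Ust), or 6.90%, against 4.04%. GC boxes were found in 18, or 62.1%, against 38.9%, in windows whose median GC content was 66.4% against 54.0%. The annotated start of Hs6st1 may lie within its coding sequence, and without its window GC boxes were in 17 of 28, or 60.7%. These matches describe letters in a window of 1 annotated start per gene.

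The linker is made stepwise by the glycosyltransferases of 5 genes, of which Xylt1 and Xylt2 serve the same first step. Of these genes 3 fell, 1 rose and 1 did not pass (80% called, against 71.3% of all tested genes). Xylosyltransferase starts the chain, and of its 2 genes Xylt2 was the one clearly expressed (ENSRNOG00000003728, chromosome 10, 82386005 to 82399485, reverse strand; genome build not given in the sources used here). Its FPKM was 12.1, 12.2 and 12.0 with shNC and 4.63, 4.37 and 4.57 with shBmal1. All 3 shBmal1 libraries lay below all shNC libraries, and the log2 fold change was −1.53 ± 0.089 (SE; adjusted p = 2.21e-06, edgeR). Xylt1 rested on 35, 15 and 23 counts against 0, 12 and 4, and its groups overlapped (−0.28 ± 0.96; adjusted p = 0.805, edgeR); without shBmal1 replicate 1, which had no count, the value turned to 0.22. B4galt7, which adds the first galactose, had an FPKM of 29.8, 28.6 and 27.6 with shNC and 13.7, 13.2 and 14.6 with shBmal1. The groups were separate, with a log2 fold change of −1.16 ± 0.085. B3galt6 adds the second galactose and fell the most of the linker genes (ENSRNOG00000019979, chromosome 5, 173423475 to 173425611, reverse strand). It had an FPKM of 5.65, 6.24 and 7.41 with shNC and 0.867, 1.25 and 0.643 with shBmal1, from 591, 682 and 717 counts against 18, 34 and 17, and a log2 fold change of −2.86 ± 0.28 (adjusted p = 3.84e-05, edgeR). B3gat3, which completes the linker with glucuronic acid, was higher instead. Its FPKM was 33.1, 33.2 and 31.7 with shNC and 39.2, 42.3 and 40.4 with shBmal1, with every shBmal1 library above every shNC library, but the change was small at 0.20 ± 0.072 (adjusted p = 0.0333, edgeR). This call was lost when any library except shBmal1 replicate 1 was left out (adjusted p = 0.0673 to 0.145), and the value was −0.17 after rescaling FPKM to TPM, where the median of all tested genes was itself −0.35.

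Chondroitin chain synthesis was lower for 4 of 6 genes, and 2 did not pass (66.7% called, against 71.3% of all tested genes). Csgalnact1 and Csgalnact2 encode enzymes that add the first N-acetylgalactosamine and so commit the linker to chondroitin. In shNC they stood at nearly the same level. Csgalnact1 fell, and Csgalnact2 did not pass. The FPKM of Csgalnact1 (ENSRNOG00000013024, chromosome 16, 22979444 to 23074798, forward strand) was 26.8, 27.3 and 27.9 with shNC and 6.78, 5.03 and 5.01 with shBmal1. That of Csgalnact2 was 27.6, 28.2 and 30.7 with shNC and 30.7, 27.4 and 26.8 with shBmal1. Csgalnact1 groups were separate (log2 fold change −2.40 ± 0.13; adjusted p = 1.35e-06, edgeR), while those of Csgalnact2 overlapped (−0.14 ± 0.079; adjusted p = 0.156). Csgalnact2 passed without shBmal1 replicate 1 (−0.23, adjusted p = 0.0155, edgeR) and with TPM (−0.50), but came to 0.072 with gene-length offsets. With TPM the median of all tested genes was itself −0.35. The chain is then extended by complexes of chondroitin synthases and polymerizing factors. Chpf, a polymerizing factor and the most abundant gene of the group, had an FPKM of 126, 120.2 and 117 with shNC and 66.1, 78.1 and 84.7 with shBmal1. Its groups were separate and its log2 fold change was −0.78 ± 0.092. Chpf2 went from 50.7, 53.0 and 51.9 with shNC to 27.6, 23.5 and 22.3 with shBmal1 (−1.19 ± 0.090), and Chsy1, the main synthase here, from 23.0, 25.1 and 25.6 with shNC to 14.3, 13.2 and 13.3 with shBmal1 (−0.96 ± 0.074). Chsy3, a second synthase, was at 3.02, 2.58 and 2.04 with shNC and 3.18, 2.32 and 1.74 with shBmal1, with overlapping groups and a change of −0.19 ± 0.29 that did not pass (adjusted p = 0.579, edgeR).

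Among 8 genes of chondroitin and dermatan modification 4 fell, 1 rose, 2 did not pass and Chst7 had no count. The share called, 71.4% of those tested, was that of all tested genes (71.3%). Chst3 encodes the enzyme that sulfates N-acetylgalactosamine at position 6, and Chst11 and Chst12 encode enzymes that sulfate it at position 4. Chst3 (ENSRNOG00000000572, chromosome 20, 29731816 to 29738506, reverse strand) had an FPKM of 4.81, 4.97 and 4.48 with shNC and 0.989, 0.596 and 1.19 with shBmal1, from 1313, 1415 and 1132 counts against 52, 42 and 80. The groups were separate and the log2 fold change was −2.47 ± 0.22 (adjusted p = 2.76e-05, edgeR). Chst12 went from 9.23, 8.84 and 8.34 with shNC to 1.66, 1.20 and 0.965 with shBmal1, again with separate groups, from 730, 729 and 610 counts against 26, 24 and 19 (−2.89 ± 0.24; adjusted p = 1.77e-05). Chst11 (ENSRNOG00000008885, chromosome 7, 26645422 to 26859716, reverse strand) did the opposite. Its FPKM was 10.4, 10.5 and 9.58 with shNC and 14.6, 16.6 and 16.4 with shBmal1, and every shBmal1 library was above every shNC library (0.53 ± 0.10; adjusted p = 0.00172, edgeR). With TPM the value of Chst11 was 0.15 and did not pass (adjusted p = 0.222, limma), against a median of −0.35 for all tested genes on that scale.

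Dermatan sulfate arises when Dse, an epimerase, turns glucuronic into iduronic acid and Chst14 sulfates the neighbouring sugar at position 4. Chst14 went from 14.3, 14.7 and 13.0 with shNC to 2.39, 2.48 and 3.10 with shBmal1, with no overlap and a change of −2.49 ± 0.14 (adjusted p = 2.09e-06, edgeR). Dse was at 9.03, 18.1 and 17.7 with shNC and 12.3, 12.2 and 12.2 with shBmal1. shNC replicate 1 lay below every shBmal1 library, whereas the other shNC libraries lay above them. The change of −0.40 ± 0.23 did not pass (adjusted p = 0.164, edgeR). Without that library it was −0.66 and passed (adjusted p = 5.39e-04, edgeR). The TPM value of −0.68 also passed (adjusted p = 0.0411, limma), against a median of −0.35 for all tested genes on that scale. Ust, which sulfates the uronic acid at position 2, went from 10.9, 9.51 and 11.6 with shNC to 5.01, 4.66 and 2.97 with shBmal1 and fell by 1.45 on the log2 scale. Chst15, which adds a second sulfate to 4-sulfated N-acetylgalactosamine, was low in both groups. It had 70, 44 and 55 counts against 19, 41 and 20, and its 0.89 ± 0.45 did not pass (adjusted p = 0.111, edgeR), although its groups did not overlap.

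Heparan chain synthesis was lower for all 4 of its genes, where 35.3% of all tested genes were lower. Ext1 and Ext2 encode the subunits of the heparan polymerase, and Ext2 was the most abundant of the 37 genes in shNC. The FPKM of Ext1 (ENSRNOG00000024886, chromosome 7, 92605728 to 92882068, reverse strand) was 71.4, 76.0 and 77.6 with shNC and 23.5, 19.8 and 17.7 with shBmal1. For Ext2 (ENSRNOG00000008944, chromosome 3, 82602785 to 82734533, reverse strand) it was 123, 127 and 119.9 with shNC and 52.9, 62.4 and 61.5 with shBmal1. Neither gene overlapped between groups, and Ext1 changed by −1.997 ± 0.11 and Ext2 by −1.18 ± 0.076 (adjusted p = 1.49e-06 and 3.88e-06, edgeR). Extl3 encodes the enzyme that adds the first N-acetylglucosamine of heparan sulfate, and Extl2 a transferase that acts on the linker. Extl2 went from 8.82, 8.73 and 7.98 with shNC to 1.91, 2.13 and 1.53 with shBmal1, a separate and larger fall (−2.28 ± 0.18). Extl3 went from 28.7, 29.8 and 30.7 with shNC to 26.0, 25.6 and 27.6 with shBmal1, a separate but small one (−0.28 ± 0.062; adjusted p = 0.00369, edgeR). The Extl3 call was lost with gene-length offsets (−0.10; adjusted p = 0.215).

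Heparan modification held both extremes of the 37 genes. Hs6st1, which encodes a sulfotransferase acting on position 6 of glucosamine (ENSRNOG00000014516, chromosome 9, 42620006 to 42659184, forward strand), had an FPKM of 68.8, 71.6 and 67.5 with shNC and 4.60, 4.42 and 5.21 with shBmal1, from 11004, 11952 and 9991 counts against 142, 179 and 205. Its level in shBmal1 was 6.36% of that in shNC, the largest fall among the members (log2 fold change −3.98 ± 0.082; adjusted p = 3.68e-08, edgeR). Hs3st1, which encodes a 3-O-sulfotransferase known for making the antithrombin-binding site (ENSRNOG00000010598, chromosome 14, 75852060 to 75882693, forward strand), had 0 counts in each shNC library and 70, 30 and 33 in shBmal1. Its FPKM there was 2.85, 0.914 and 1.05, with replicate 1 well above the others. Pooled over the shBmal1 libraries, Hs3st1 stood at 3.95 CPM, 176-fold a floor of 3 counts over the shNC group. That floor covers counting error in shNC only. Replicate 1 gave 70 of the 133 pooled counts, so the fold is not a lower bound for each shBmal1 library. It met the count filter through shBmal1 alone, so the filter fixed its direction and its p is not given as support. The endothelial markers, also near 0 in shNC, had summed to 1.39 to 1.86 FPKM in the same libraries, and their part in the Hs3st1 value was not tested.

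The other 4 genes of heparan modification fell between 0.92 and 1.45 on the log2 scale. Ndst1 and Ndst2 encode the enzymes that remove the acetyl group from glucosamine and sulfate the nitrogen. Ndst1 went from 16.7, 17.3 and 16.3 with shNC to 6.96, 6.71 and 7.63 with shBmal1 (−1.35 ± 0.081). Ndst2, the less abundant of the pair, went from 3.91, 4.39 and 4.49 with shNC to 1.26, 1.78 and 1.96 with shBmal1 (−1.45 ± 0.20). Glce, the epimerase that makes iduronic acid in heparan sulfate, went from 10.6, 11.8 and 10.4 with shNC to 6.49, 5.79 and 6.38 with shBmal1 (−0.92 ± 0.091). Hs2st1, which sulfates that iduronic acid at position 2, went from 12.1, 13.4 and 12.0 with shNC to 5.97, 6.35 and 7.03 with shBmal1 (−1.07 ± 0.093). The groups of all 4 were separate, where 39.1% of all tested genes were separated in the lower direction. All 4 were called lower, against 35.3% of all tested genes, with an adjusted p between 2.59e-06 and 2.70e-04 (edgeR).

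All 6 genes of precursor supply fell, where 35.3% of all tested genes did. Ugp2 and Ugdh encode the enzymes that make UDP-glucose and oxidize it to UDP-glucuronic acid. The FPKM of Ugp2 was 28.2, 27.1 and 32.4 with shNC and 11.9, 15.4 and 13.3 with shBmal1. That of Ugdh was 20.2, 23.6 and 20.4 with shNC and 11.2, 11.1 and 10.3 with shBmal1. Groups were separate for both, at −1.22 ± 0.12 and −1.09 ± 0.10. Sulfate enters the cell through the transporter encoded by Slc26a2, and Papss1 and Papss2 encode the synthases that turn it into PAPS. Papss2 is the form known for its role in cartilage (ENSRNOG00000011068, chromosome 1, 251145253 to 251230715, forward strand). It had an FPKM of 21.7, 23.1 and 23.7 with shNC and 3.97, 4.57 and 4.09 with shBmal1. Papss1 stood at 26.7, 23.4 and 25.9 with shNC and 15.2, 14.5 and 12.2 with shBmal1. Both were lower without overlap, Papss2 by 2.54 and Papss1 by 0.97 in log2 units (edgeR, adjusted p = 2.08e-07 and 9.42e-05). Slc26a2 was at 3.25, 3.18 and 3.83 with shNC and 1.20, 1.45 and 0.452 with shBmal1, from only 458, 467 and 500 counts against 33, 52 and 16, and changed by −1.82 ± 0.38 (adjusted p = 0.00305, edgeR). Slc35b2, which carries PAPS into the Golgi, went from 32.9, 32.6 and 35.4 with shNC to 13.8, 13.7 and 11.3 with shBmal1, separate groups again (−1.49 ± 0.10).

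Sulf1 and Sulf2 encode secreted enzymes that remove 6-O-sulfate from finished heparan sulfate. Sulf1 (ENSRNOG00000009037, chromosome 5, 5999475 to 6186329, reverse strand) went from 35.0, 36.7 and 37.5 with shNC to 11.9, 9.73 and 8.81 with shBmal1, a change of −1.96 ± 0.11 with separate groups (adjusted p = 2.05e-06, edgeR). Sulf2 was at 8.39, 8.52 and 8.41 with shNC and 6.90, 7.01 and 8.56 with shBmal1. Its FPKM overlapped between the groups through shBmal1 replicate 3, and the change of −0.28 ± 0.10 passed narrowly (adjusted p = 0.0368, edgeR). The call was lost without any 1 library other than shBmal1 replicate 3 (adjusted p = 0.0501 to 0.112), with DESeq2 (0.0932) and with gene-length offsets (−0.071; 0.571).

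**Figure D2:**
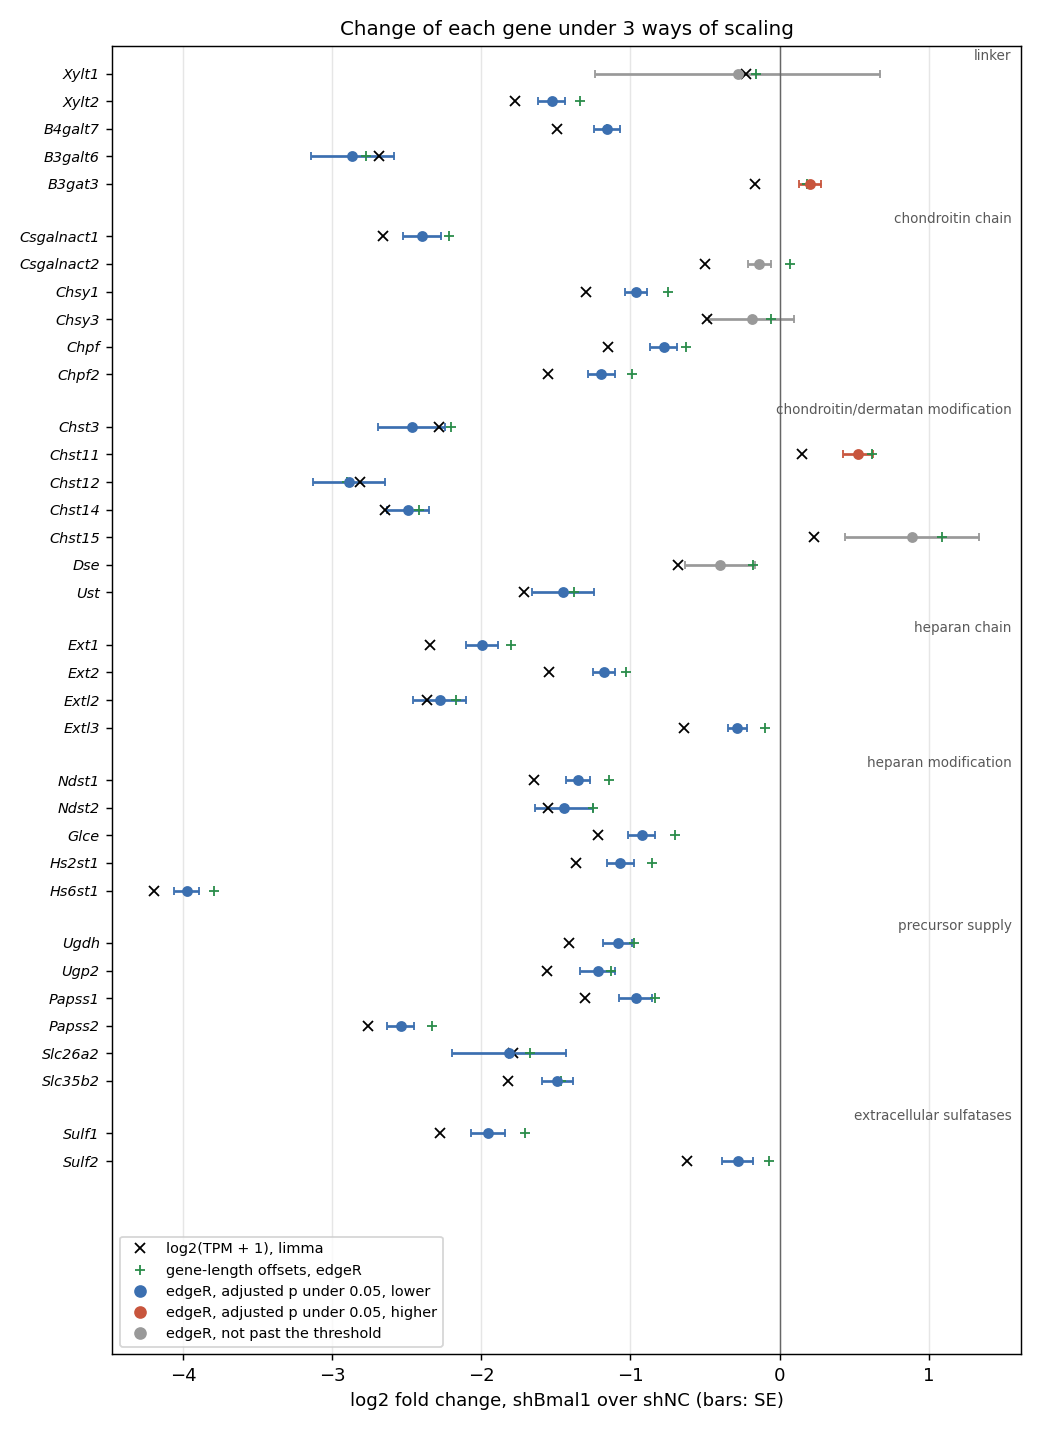
Log2 fold change of shBmal1 over shNC with its SE for 35 tested genes (circles, edgeR), beside the values from log2(TPM + 1) with limma (crosses) and from edgeR with gene-length offsets (plus signs); Hs3st1, with no count in shNC, is left out. Crosses lie to the left of most circles, and among the called genes the sign of B3gat3 differs, at 0.20 with edgeR and −0.17 with TPM.

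Ratios of related genes within a library do not depend on how libraries are scaled, so 16 pairs of like or successive function were compared in this way. Of these, 14 had counts in every library, and Xylt1 with Xylt2 and Chst3 with Chst7 did not. For 9 pairs the FPKM ratios of the groups did not overlap, and for 8 the ratio changed at least 2-fold. No such share was computed for other pairs of genes, and 77.3% of all tested genes were themselves separated in CPM. These counts are therefore not read as particular to related genes. Each of these 9 gave an exact two-sided permutation p = 0.1, the smallest possible with 3 against 3 libraries, and 0.156 after Benjamini-Hochberg adjustment over the 14 pairs, so none passed. The ratio of Chst3, a 6-O-sulfotransferase gene, to Chst11, a 4-O-sulfotransferase gene, was 0.461, 0.473 and 0.468 with shNC and 0.0679, 0.0359 and 0.0726 with shBmal1. It does not stand for all 4-O-sulfotransferase genes. Chst12 fell as Chst3 did (log2 fold changes −2.89 and −2.47), and Chst3 over Chst12 was not among the pairs. The ratio of the 4-O-sulfotransferases, Chst12 over Chst11, was 0.885, 0.841 and 0.871 with shNC and 0.114, 0.0723 and 0.0589 with shBmal1. Chst11 was thus slightly above Chst12 in shNC and far above it in shBmal1. Hs6st1 over Hs2st1 was 5.67, 5.33 and 5.61 with shNC and 0.770, 0.696 and 0.741 with shBmal1, the single pair whose order was turned in all libraries. Papss2 over Papss1 was 0.812, 0.986 and 0.915 with shNC and 0.260, 0.315 and 0.334 with shBmal1, so that a near-even pair in shNC became one led by Papss1. Csgalnact1 over Csgalnact2 was 0.971, 0.970 and 0.909 with shNC and 0.221, 0.183 and 0.187 with shBmal1, another near-even pair that parted. The other separated pairs changed by −2.04 (Extl2 over Extl3), −0.83 (Ext1 over Ext2), 1.68 (Sulf2 over Sulf1) and 2.18 (Dse over Chst14) on the log2 scale. Overlapping groups and differences of −0.75 to 0.42 were found for Chsy1 over Chsy3, Slc26a2 over Slc35b2, Ugp2 over Ugdh, Ndst2 over Ndst1 and Chpf over Chpf2.

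**Figure D3:**
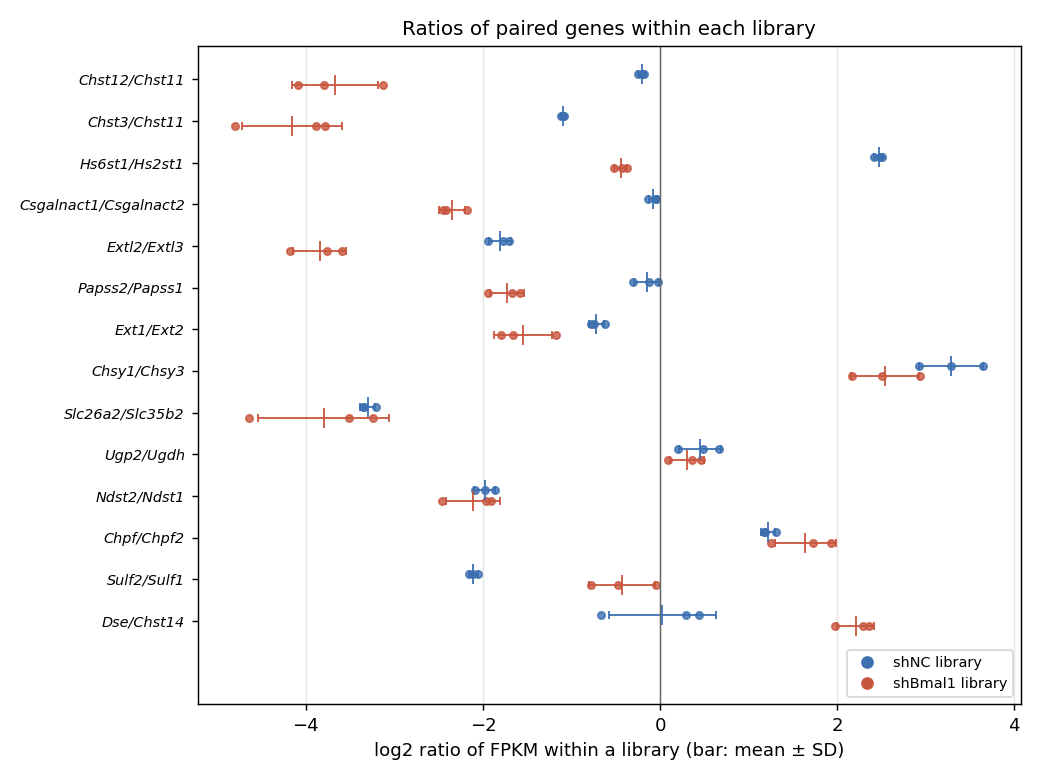
Log2 ratio of the FPKM of 2 genes within each library for 14 pairs, ordered by their difference between the groups, with points for libraries and bars for mean and SD (n = 3). Chst12/Chst11 lies between −0.25 and −0.18 in shNC and between −4.08 and −3.13 in shBmal1, while the points of Ndst2/Ndst1 and Ugp2/Ugdh overlap.

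Other genes of the same chemistry moved in both directions. Of 39 further genes of glycosaminoglycan and sugar nucleotide synthesis 38 were found, with 34 rows tested, of which 16 fell, 6 rose and 12 did not pass. This was 64.7% called against 71.3% of all tested genes, with a median log2 fold change of −0.44. Among the 6 that rose, Chst1 had 16, 20 and 19 counts in shNC and Hs3st5 had 0, 19 and 26. As a full group both met the filter on low counts only through shBmal1, which favoured that direction. They were the 2 that rose at least 2-fold, and their calls are not given as support. Hs6st2, which encodes a second 6-O-sulfotransferase of heparan sulfate, fell as Hs6st1 did, from a mean of 114 to 19.7 FPKM (log2 fold change −2.65; adjusted p = 5.12e-07, edgeR). Dsel, a relative of Dse, changed by −2.39 and Gfpt1, which controls entry into hexosamine synthesis, by −1.05. Of 16 tested genes of glycosaminoglycan breakdown 13 fell, 1 rose and 2 did not pass (87.5% called, against 71.3%), with a median of −0.70. Those with the smallest p were the sulfatase gene Arsg (−1.50), Idua, which encodes iduronidase (−1.84), and the hyaluronidase genes Hyal2 (−1.78) and Hyal1 (−2.30). The one that rose was Hpse, which encodes heparanase (2.73), from 24, 63 and 54 counts to 73, 68 and 93; it is named here because it was alone in that direction. Genes of N-glycan processing in the same Golgi compartment were lower in 16 of 20 tested, higher in 1 (B4galt3, 0.81, named for the same reason), with 3 not passing (85% called, against 71.3%) and a median of −1.05. St6gal1, a sialyltransferase gene, changed by −3.10, the mannosidase genes Man2a1 and Man2a2 by −1.38 and −1.35, and Mgat2 by −1.24. The median of the N-glycan genes was thus close to the −1.19 of the glycosaminoglycan genes, and no test of a difference between the lists was made. Acan, whose product aggrecan carries the chondroitin chains, changed by −4.30, from a mean of 85.9 to 4.68 FPKM.

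Summed over the 37 genes, FPKM was 917, 942 and 933 with shNC and 453, 463 and 458 with shBmal1, which left 49.2% of the control mean. The sums of every role were lower in all shBmal1 libraries than in any shNC library. The linker kept the most, 80.0 ± 1.06 against 60.1 ± 1.57 FPKM (SD, n = 3). B3gat3 made up 40.3 to 41.3% of it in shNC and 66.9 to 68.8% in shBmal1. Heparan modification kept the least, 114 ± 4.12 against 27.8 ± 1.66 FPKM, or 24.4%. Hs6st1 alone held 60.4 to 61.3% of that sum in shNC and 16.3 to 17.8% in shBmal1. Heparan chain synthesis went from 237 ± 5.09 to 108 ± 2.91 FPKM and chondroitin chain synthesis from 256 ± 1.05 to 151 ± 2.70. FPKM is relative to all RNA of a library, and its sum over all genes was itself higher in shBmal1, at 565293 to 598765 against 410231 to 418147.

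**Figure D4:**
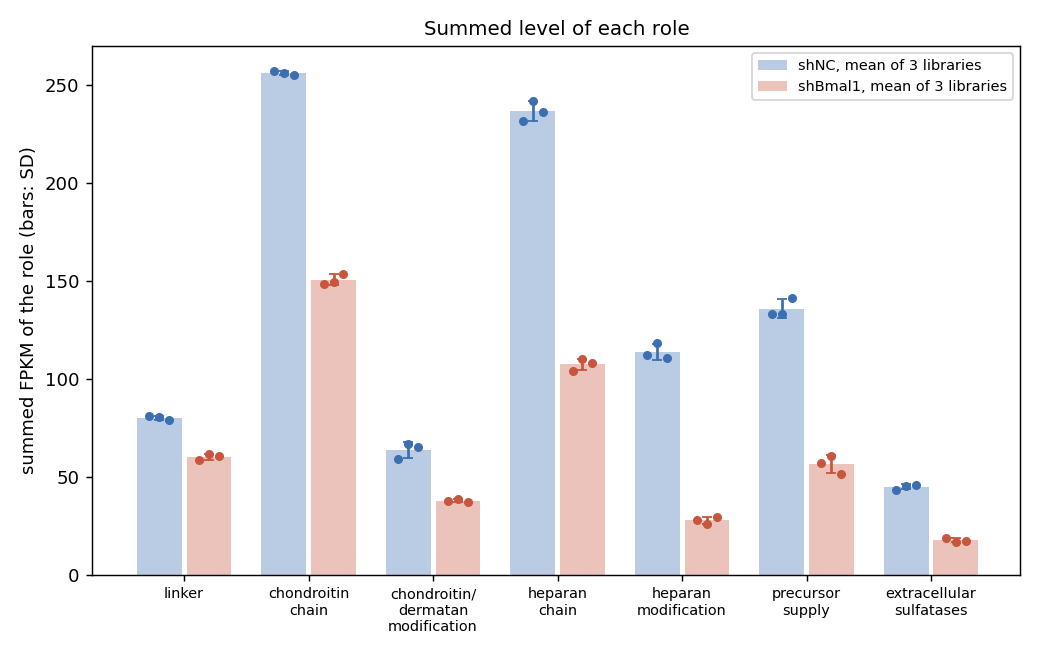
Summed FPKM of the genes of each role, with bars for the mean of 3 libraries, error bars for the SD and points for single libraries, blue for shNC and red for shBmal1. Every red bar is lower than its blue neighbour, from 75.1% of it in the linker to 24.4% in heparan modification.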

How the data were processed

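Per the labels' protocols, poly(A) RNA of the 6 libraries was sequenced in paired ends, though the same text speaks of an adipose type and of poly(A)- fractions. Per the submitters' processing notes, HISAT2 2.0.4, StringTie 1.3.4d, cutadapt 1.9, DESeq2 and edgeR were used, in roles not given there. Build, annotation and strand use, not given in the sources used here, can shift which reads a gene received. The deposited table holds raw counts per gene and library, and FPKM computed by the authors, per the file headers. Where the count is 0 the deposited FPKM is 1e-04. Over 10394 genes above 20 counts in every library, count over FPKM within a gene was the same in all libraries, up to a constant per library, with an SD of 0.00641 or less (log2).

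Genes passing filterByExpr (minimum count 10, minimum total 15; 14342 genes) were scaled by TMM and tested with edgeR 4.0.16 (quasi-likelihood, R 4.3.3) without a replicate block, and p-values were adjusted over all of them. SE is the absolute log2 fold change over the square root of F. Alternatives used DESeq2 1.42.0, upper-quartile scaling, TPM rescaled from FPKM with limma 3.58.1 (pseudocount 1 or 0.1), no filter, a replicate block, removal of the 50 most abundant and all mitochondrially encoded genes, and each library left out. Gene-length offsets, a lowess curve of log2 CPM on length per library, were added after the data had been seen. Procedures were tested on simulated data. The 37 genes, the pairs and the other lists were chosen with earlier results of these data known. All 37 are named, with up to 4 genes of smallest p from each of the 3 lists of other synthesis, breakdown and N-glycan genes, of which 1 is not reported here. Further genes were named after their values were seen: Hpse, B4galt3, Chst1, Hs3st5, and the marker genes given as checks of cell type. List members were matched by symbol, and a symbol on 2 rows counts by row. No 2 libraries of a group agreed within sampling noise (chi-square over its degrees of freedom, 10.8 to 23.5). Coordinates of genes are those of the table, and promoter windows those of RefSeq, build GRCr8. A count of 3 corresponds to 0.0603 to 0.0681 CPM per shNC library and 0.257 to 0.342 CPM per shBmal1 library before TMM scaling, which covers counting error only.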

Additional observations from a re-analysis of the deposited data

How the results depend on the processing

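The 28 members called lower and 3 called higher became 30 and 1 with log2(TPM + 1) and 30 and 1 with log2(TPM + 0.1), both in limma; the cause was not tested. Across the 6 fits with 1 library left out they were 27 to 28 and 2 to 3, while calls over all genes ran from 9274 to 10617 against 10233. Signs turned for B3gat3 with TPM (−0.17 and −0.17 with the pseudocounts 1 and 0.1) and for Csgalnact2 with gene-length offsets (0.072). Without shBmal1 replicate 1 the sign turned for Xylt1 (0.22, range with 1 shBmal1 library left out −1.65 to 0.22). Xylt1 was not tested when an shNC library was left out. The Ndst2 over Ndst1 log2 ratio also turned without shBmal1 replicate 1 (0.042, range with 1 library left out −0.23 to 0.042). Upper-quartile scaling and removal of the most abundant genes changed no member's call, DESeq2 only that of Sulf2 and no filter only that of B3gat3 (adjusted p = 0.192, edgeR). Gene-length offsets ended the calls of B3gat3 (adjusted p = 0.0531), Sulf2 and Extl3. With a replicate block, 9415 genes were called, 27 members lower and 2 higher, and B3gat3 and Sulf2 missed the threshold (adjusted p = 0.0703 and 0.0681, edgeR). The replicate numbers gave no sign of pairing: same-numbered libraries had correlations of −0.0665, −0.0059 and 0.0179 between their deviations from the group means, and not every library correlated best with its own number. Depth limits Xylt1, Chst15, Slc26a2, B3galt6, Chst12 and Hs3st1 most, since their counts in shBmal1 were few.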

Other observations

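The order of the 37 genes by mean FPKM was largely kept between the groups, with exceptions that the fold changes alone do not show. Across the 36 tested members, mean log2 FPKM in shNC and in shBmal1 had a Spearman correlation of 0.823, a description over genes that share libraries. Ext2 ranked 1 and Chpf 2 in shNC, and they ranked 2 and 1 in shBmal1. Hs6st1 ranked 4 in shNC and 22 in shBmal1, and Sulf1 ranked 6 and 16. In the other direction Chst11 moved from rank 25 to 8, B3gat3 from 8 to 3 and Sulf2 from 28 to 17. Within chondroitin and dermatan modification, Chst11 held 14.7 to 17.7% of the summed FPKM in shNC and 38.9 to 44.0% in shBmal1. Shares within a library do not depend on its scaling, and no test of these shares was made.

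Level and length were not criteria in the choice of genes, which was made with earlier results of these data known. The log2 of the mean FPKM in shNC had a Pearson correlation with the log2 fold change of −0.797 and a Spearman correlation of −0.154 over the 36 tested members. Over 12323 tested genes with a count in every library these were −0.321 and −0.249. Hs3st1, at 0 counts in shNC, is among the 36 and entered at the deposited placeholder of 1e-04 FPKM, far from the other members. The Pearson value over the members is therefore not read. Hs3st1 and Xylt1 each lack a count in some library, so the 12323 genes were chosen by a rule that these members do not meet. These points share libraries, and shNC enters both measures. Relative gene length, recovered from counts and FPKM, had a Spearman correlation with the log2 fold change of 0.0752 over the 36 tested members and of −0.181 over the same 12323 genes. The median length of the members was 1.35 times that of all tested genes. With gene-length offsets the median change of the tested members was −1.08 and that of all tested genes −0.0049.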
